A study of Penicillium oxalicum with 9 samples.

Results

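A group of 101 genes of Penicillium oxalicum stood at 10 FPKM or more in every library of the control strain Ku70 and of the mutant MuPOX08340, and at no more than the lowest of those 6 values divided by 3 in every library of the mutant MuPOX01907. The genes were chosen by these measured values, so their low level in MuPOX01907 is a description and carries no test. They are 101 of 9834 gene IDs in the files, and 101 of the 5734 IDs that reached 10 FPKM in all 6 libraries. POX01907 and POX08340, the genes altered in the mutants, were left out. FPKM are fragment numbers scaled to gene length and library size, so levels of different genes can be set side by side.

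The study asked what transcription factors that control amylase genes do. Total RNA of mycelium, the mass of fungal threads, was sequenced after 24 h of culture at 28°C in 3 libraries for each strain, named F, S and T. By the sample titles the MuPOX01907 and MuPOX08340 mycelia grew in liquid medium with 1% starch and the Ku70 mycelium in medium with 1% Avicel, a microcrystalline cellulose. For every library, however, the growth protocol describes Avicel medium and spores of MuKu70. Whether both regulator mutants also carry the Ku70 lesion, and whether a strain is 1 clone, is not stated in the labels. Against Ku70, a mutation and the stated medium cannot be told apart, whereas both mutants share 1 stated medium.

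P. oxalicum is a mould that releases enzymes for the breakdown of starch, cellulose and xylan from plants. In filamentous fungi such enzymes, and many genes outside carbon use, are switched by transcription factors that respond to the carbon source and to development, and genes of 1 pathway often lie side by side on a chromosome. Strains without Ku70, a protein of end joining repair, are used as hosts because introduced DNA then integrates mainly by homology. None of the 9834 IDs matched the available RefSeq table of strain HP7-1, so the genes are given by ID and what they encode is not described here.

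Expected counts, the estimated reads per gene, totalled between 14412296 and 14802260 per library. POX01907 had 1, 1 and 3 reads in MuPOX01907 F, S and T, against 1346 to 1968 in the other 6 libraries, and POX08340 had 0 reads in each MuPOX08340 library, 870 to 1013 in Ku70 and 232, 226 and 208 in MuPOX01907 F, S and T. Ku70 F stood apart from Ku70 S and Ku70 T, with a Pearson correlation of log2(FPKM + 1) across genes, which are not independent replicates, of 0.918 and 0.909, while S and T had 0.985. Within both mutants the correlations lay between 0.978 and 0.995. Calls against Ku70, and the folds over MuPOX01907 printed here that moved by more than 1.5 times, are therefore also given without Ku70 F. The labels do not state whether a strain's libraries are separate cultures. The spread behind each p-value is that of these libraries and may be technical. In bulk mycelium, fewer cells of a type and less RNA per cell cannot be told apart.

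The 101 genes took 0.165% to 0.208% of the counts in the MuPOX01907 libraries, 1.77% to 2.02% in MuPOX08340 and 2.36% to 2.68% in Ku70. Their median level was 7.07, 6.82 and 5.87 FPKM in MuPOX01907 F, S and T. In MuPOX08340 F, S and T it was 74.0, 64.8 and 59.97 FPKM, and in Ku70 79.5, 73.3 and 67.4 FPKM. Across the genes, the ratio of mean FPKM of Ku70 to that of MuPOX01907 ran from 3.51 to 790 with a median of 9.72, and that of MuPOX08340 to MuPOX01907 from 3.45 to 193 with a median of 7.65. In 31 genes both ratios were 10 or more, in 15 both were 20 or more and in 3 both were 50 or more.

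**Figure D1:**
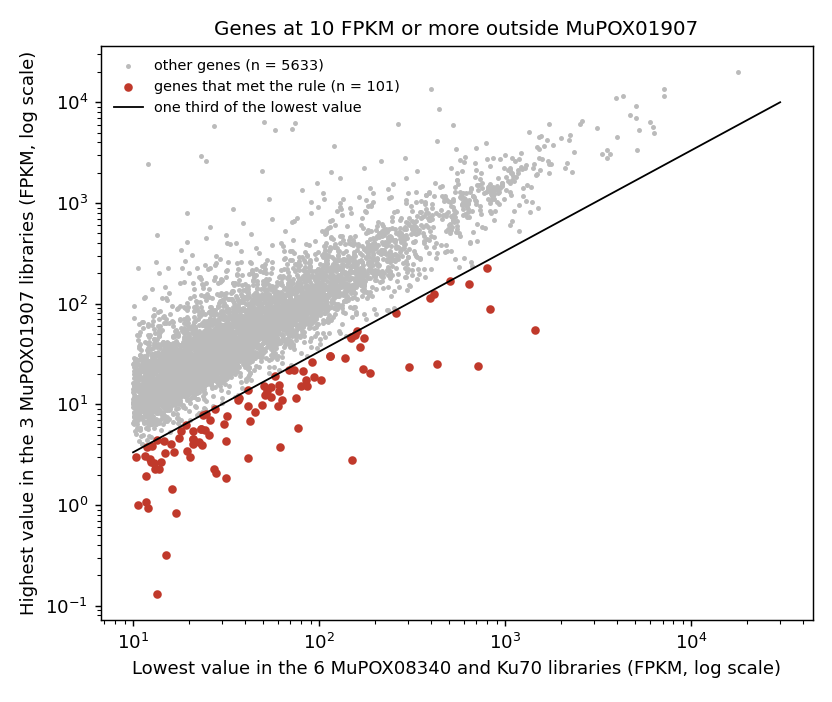
Each point is 1 of the 5734 genes with at least 10 FPKM in all 6 MuPOX08340 and Ku70 libraries, by its lowest value there (horizontal axis, FPKM, log scale) and its highest value in the 3 MuPOX01907 libraries (vertical axis, FPKM, log scale). The 101 red points lie on or under the line at the lowest value divided by 3, most of them close to it, and a few such as POX01188 and POX09025 far below.

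Most genes met the rule by a modest margin. The lowest of the 6 values divided by the highest MuPOX01907 value had a median of 4.63 over the 101 genes, with quartiles of 3.51 and 6.19. Just inside the limit of 3 were POX05055 (3.003), POX07081 and POX02853 (both 3.007), POX04064 (3.02) and POX02377 (3.06). Just outside it were POX03818 (2.99), POX03793 (2.97), POX03347 and POX07618 (both 2.96) and POX03474 (2.95). At the minimum of 10 FPKM, the lowest values of POX09323 (10.3), POX08103 (10.7) and POX02714 (11.6) were just inside and those of POX07173 (9.53), POX01320 (9.21) and POX02693 (9.09) just outside.

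The size of the group rests on the scale of FPKM. Over 8589 genes with a mean of at least 1 FPKM, the median log2 ratio of MuPOX01907 to Ku70, on the log2(FPKM + 1) scale, was -0.32 as deposited and -0.06 after dividing each library by its TMM factor, and the ratio to MuPOX08340 was -0.35 and -0.05. With TMM-scaled FPKM, 74 of the 101 genes met the rule and no other gene did. The 27 that dropped out had ratios from 3.003 to 3.72, and the median fold over MuPOX01907 became 8.03 for Ku70 and 6.10 for MuPOX08340.

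POX01188 and POX01184, both among the largest ratios, were close to 0 FPKM in MuPOX01907. POX01188, with the largest ratio, measured 0.07, 0.13 and 0.07 FPKM in MuPOX01907 F, S and T, 18.0, 16.6 and 13.4 FPKM in MuPOX08340 and 152, 36.7 and 24.8 FPKM in Ku70. Those MuPOX01907 values rest on 4 reads in all, against 721 in MuPOX08340 and 3249 in Ku70, and the ratio of reads per library size was 182 for MuPOX08340 (exact binomial 95% interval 70.6 to 668, which covers counting error only) and 806 for Ku70 (315 to 2961). POX01184 measured 0.11, 0.16 and 0.32 FPKM in MuPOX01907, 49.0, 36.9 and 28.2 FPKM in MuPOX08340 and 308, 28.0 and 15.1 FPKM in Ku70. Ku70 F was far above its group for both: the fold of Ku70 over MuPOX01907 was 790 for POX01188 and 342 without Ku70 F, and 594 for POX01184 and 110 without it.

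POX09025 had a similar level in all 6 other libraries. It measured 2.78, 2.24 and 1.84 FPKM in MuPOX01907 F, S and T, 184, 180 and 149 FPKM in MuPOX08340 and 229, 183 and 181 FPKM in Ku70, folds of 74.8 and 86.5. POX08483 was less abundant, with 0.84, 0.78 and 0.50 FPKM in MuPOX01907, 31.2, 23.9 and 19.2 FPKM in MuPOX08340 and 16.9, 27.8 and 21.4 FPKM in Ku70. Both genes fell outside the range of the other strains by more than 10 times in every MuPOX01907 library, with ratios of the lowest other value to the highest MuPOX01907 value of 53.7 and 20.2. POX09798 measured 1.87, 0.93 and 0.59 FPKM in MuPOX01907, 51.2, 36.2 and 31.4 FPKM in MuPOX08340 and 46.4, 81.3 and 55.9 FPKM in Ku70. POX03912 measured 2.90, 2.62 and 1.22 FPKM, 69.1, 49.0 and 45.8 FPKM and 75.2, 74.0 and 41.7 FPKM in the same order. In both, MuPOX01907 T was the lowest library of all 9. The others among the 10 largest ratios were POX01694, POX01695, POX06146 and POX01044, described below.

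The most abundant of the 101 genes was POX01695. It measured 2401, 3795 and 4044 FPKM in Ku70 F, S and T, 2123, 1601 and 1448 FPKM in MuPOX08340 and 55.2, 51.0 and 32.0 FPKM in MuPOX01907. That makes a fold of 74.1 of Ku70 and 37.4 of MuPOX08340 over MuPOX01907. Its neighbour in ID number, POX01694, measured 754, 1522 and 1656 FPKM in Ku70, 807, 710 and 716 FPKM in MuPOX08340 and 22.7, 23.8 and 16.3 FPKM in MuPOX01907. For both genes the MuPOX01907 libraries were low together, far from the other 6.

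POX04863 remained well expressed in MuPOX01907, at 199, 225 and 166 FPKM in F, S and T, against 1507, 1960 and 2620 FPKM in MuPOX08340 and 795, 2234 and 1965 FPKM in Ku70. POX08454 was similar, with 158, 127 and 132 FPKM in MuPOX01907, 1056, 1102 and 1631 FPKM in MuPOX08340 and 638, 1546 and 1360 FPKM in Ku70. Relative to MuPOX01907, the folds of Ku70 and MuPOX08340 were 8.47 and 10.3 for POX04863 and 8.50 and 9.09 for POX08454. POX06145 measured 87.3, 88.0 and 58.3 FPKM in MuPOX01907, 1865, 1794 and 1481 FPKM in MuPOX08340 and 828, 2254 and 1680 FPKM in Ku70, folds of 20.4 over MuPOX01907 for Ku70 and 22 for MuPOX08340.

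The other 5 of the 10 most abundant genes were POX02853, POX06146, POX08296, POX08497 and POX02918. POX02853 measured 169, 146 and 129 FPKM in MuPOX01907, 738, 714 and 743 FPKM in MuPOX08340 and 1855, 700 and 507 FPKM in Ku70, and its fold of Ku70 over MuPOX01907 fell from 6.91 to 4.09 when Ku70 F was left out. POX08296 measured 114, 101 and 98.2 FPKM in MuPOX01907, 712, 670 and 564 FPKM in MuPOX08340 and 394, 685 and 429 FPKM in Ku70. POX08497 varied widely within each strain. It measured 40.8, 80.8 and 63.4 FPKM in MuPOX01907, 260, 591 and 788 FPKM in MuPOX08340 and 662, 309 and 709 FPKM in Ku70. POX02918 had one of the smaller folds of the group, with 124, 124 and 116 FPKM in MuPOX01907, 423, 441 and 475 FPKM in MuPOX08340 and 413, 637 and 576 FPKM in Ku70, or 4.46 for Ku70 and 3.67 for MuPOX08340.

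**Figure D2:**
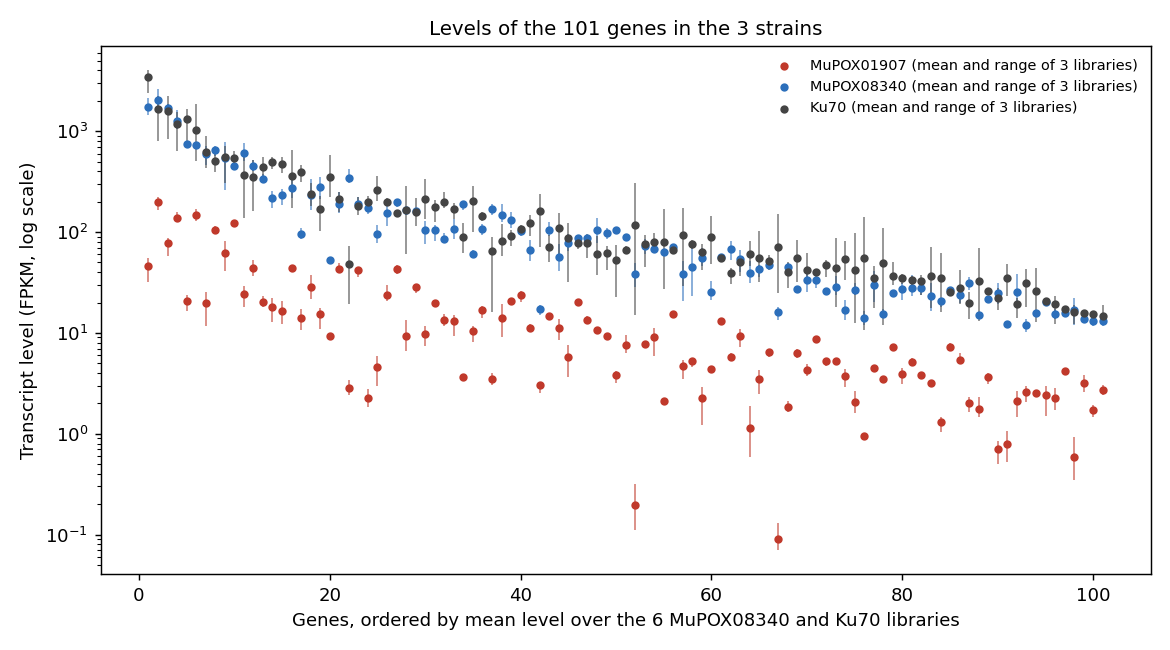
Transcript level (FPKM, log scale) of the 101 genes, ordered by their mean over the 6 MuPOX08340 and Ku70 libraries; points are means of 3 libraries and lines their range. The red MuPOX01907 values lie below both other strains for each gene by the rule, at a distance that varies from gene to gene and is widest for POX01188 and POX01184.

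By mean level over the 6 other libraries, 5 genes stood at 1000 FPKM or more, 35 between 100 and 1000, 42 between 30 and 100 and 19 between 10 and 30 FPKM. The 5 most abundant are POX01694, POX01695, POX04863, POX06145 and POX08454, with mean levels of 20.9 to 197 FPKM in MuPOX01907, 744 to 2029 in MuPOX08340 and 1181 to 3413 in Ku70. The median fold of Ku70 over MuPOX01907 was 20.4 in these 5 genes, 11.1 in the 35, 9.42 in the 42 and 9.18 in the 19.

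The 35 genes from 100 to 1000 FPKM had mean levels of 2.29 to 148 FPKM in MuPOX01907, 52.3 to 732 in MuPOX08340 and 48.3 to 1021 in Ku70. They are POX00562, POX01044, POX01189, POX01470, POX01692, POX01693, POX01697, POX01829, POX01931, POX02069, POX02834, POX02853, POX02918, POX03873, POX04064, POX04337, POX04458, POX04800, POX05081, POX06008, POX06146, POX06366, POX06549, POX06743, POX06926, POX07081, POX07270, POX08296, POX08497, POX08811, POX08946, POX09025, POX09026, POX09101 and POX09546.

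The 42 genes from 30 to 100 FPKM had mean levels of 0.09 to 20.1 FPKM in MuPOX01907, 13.9 to 106 in MuPOX08340 and 32.6 to 163 in Ku70. They are POX00522, POX00741, POX01120, POX01184, POX01188, POX01604, POX01825, POX01867, POX02355, POX02377, POX02792, POX02794, POX02972, POX02995, POX03408, POX03860, POX03871, POX03905, POX03912, POX04109, POX04373, POX04392, POX04673, POX05055, POX05359, POX05572, POX05898, POX06604, POX06835, POX06987, POX07141, POX07387, POX07619, POX08103, POX08194, POX08652, POX08780, POX08788, POX08865, POX09776, POX09798 and POX09819.

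The 19 genes from 10 to 30 FPKM had mean levels of 0.593 to 7.27 FPKM in MuPOX01907, 11.9 to 31.3 in MuPOX08340 and 14.7 to 36.5 in Ku70. They are POX02014, POX02354, POX02714, POX03411, POX03541, POX03556, POX03706, POX03815, POX03936, POX04376, POX05240, POX06755, POX08483, POX08654, POX09173, POX09323, POX09341, POX09356 and POX09781. Only POX01184, POX01188, POX08483 and POX05240 among the 101 genes stayed at or under 1 FPKM in all MuPOX01907 libraries, and 5 genes exceeded 100 FPKM in at least 1 of them.

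In ID number, 12 of the 101 genes lay next to another of them. Of the 202 ID positions directly before or after one of the 101 genes, 14 were held by another of them (6.93%). The group makes up 1.03% of all IDs and 1.76% of the 5734 IDs that reached 10 FPKM in all 6 libraries. The 12 genes with such a neighbour formed 5 runs, the longest of 4 genes. No coordinates of these IDs were used here, so adjacent numbers need not be adjacent genes.

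The longest run was POX01692 to POX01695, followed after POX01696 by POX01697. POX01692 measured 22.3, 18.8 and 12.95 FPKM in MuPOX01907 F, S and T, 257, 228 and 172 FPKM in MuPOX08340 and 424, 512 and 553 FPKM in Ku70. POX01693 had almost the same values, with 20.5, 17.2 and 12.1 FPKM, 269, 236 and 187 FPKM and 383, 497 and 551 FPKM in the same order. MuPOX01907 T was the lowest library for all 4 genes of the run. POX01696, which lies between and missed the limit with a ratio of 2.55, measured 36.1 ± 3.07 FPKM (SD, n = 3) in MuPOX01907, 152 ± 22.4 in MuPOX08340 and 123 ± 24.4 in Ku70. Outside the stretch the levels of MuPOX01907 were near those of the other strains. POX01691 measured 32.5 ± 4.87, 29.2 ± 1.25 and 45.7 ± 24.2 FPKM in MuPOX01907, MuPOX08340 and Ku70, and POX01699 23.4 ± 1.21, 28.9 ± 5.59 and 31.0 ± 7.25.

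The stretch from POX01182 to POX01189, singled out after its values were seen, held POX01184, POX01188 and POX01189. POX01189 measured 19.3, 23.4 and 18.1 FPKM in MuPOX01907, 379, 317 and 304 FPKM in MuPOX08340 and 555, 436 and 328 FPKM in Ku70. The IDs just before missed only the minimum of 10 FPKM. POX01182 measured 0.30, 0.44 and 0.80 FPKM in MuPOX01907, 46.8, 46.1 and 38.8 FPKM in MuPOX08340 and 307, 18.4 and 8.08 FPKM in Ku70, and POX01183 0, 0.22 and 0.16 FPKM, 11.95, 10.6 and 6.96 FPKM and 44.7, 4.86 and 2.99 FPKM. For POX01182, POX01183, POX01184, POX01188 and POX01189 alike, Ku70 F was the highest of the 9 libraries. POX01185, POX01186 and POX01187, in the middle of the stretch, did not exceed 3.67 FPKM in any library.

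Of the pairs, also named after their values were seen, POX06145 and POX06146 were the most abundant. POX06146 measured 25.3, 22.5 and 11.7 FPKM in MuPOX01907, 714, 618 and 458 FPKM in MuPOX08340 and 432, 902 and 548 FPKM in Ku70. As in POX06145, MuPOX01907 T and Ku70 F were the lowest libraries of their groups, and both genes had expected counts that were not whole in at least 1 library, as had 14 of the 101 genes (13.9%, against 13.4% of all IDs), as arises where reads are divided between genes. POX09026, next to POX09025, measured 18.5, 17.8 and 14.2 FPKM in MuPOX01907, 120, 110 and 94.3 FPKM in MuPOX08340 and 127, 158 and 143 FPKM in Ku70. POX02354 and POX02355 formed the last pair, at 1.73 ± 0.25 and 4.39 ± 0.0907 FPKM (SD, n = 3) in MuPOX01907, 13.3 ± 2.03 and 25.6 ± 6.00 in MuPOX08340 and 15.2 ± 1.29 and 88.4 ± 48.9 in Ku70.

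**Figure D3:**
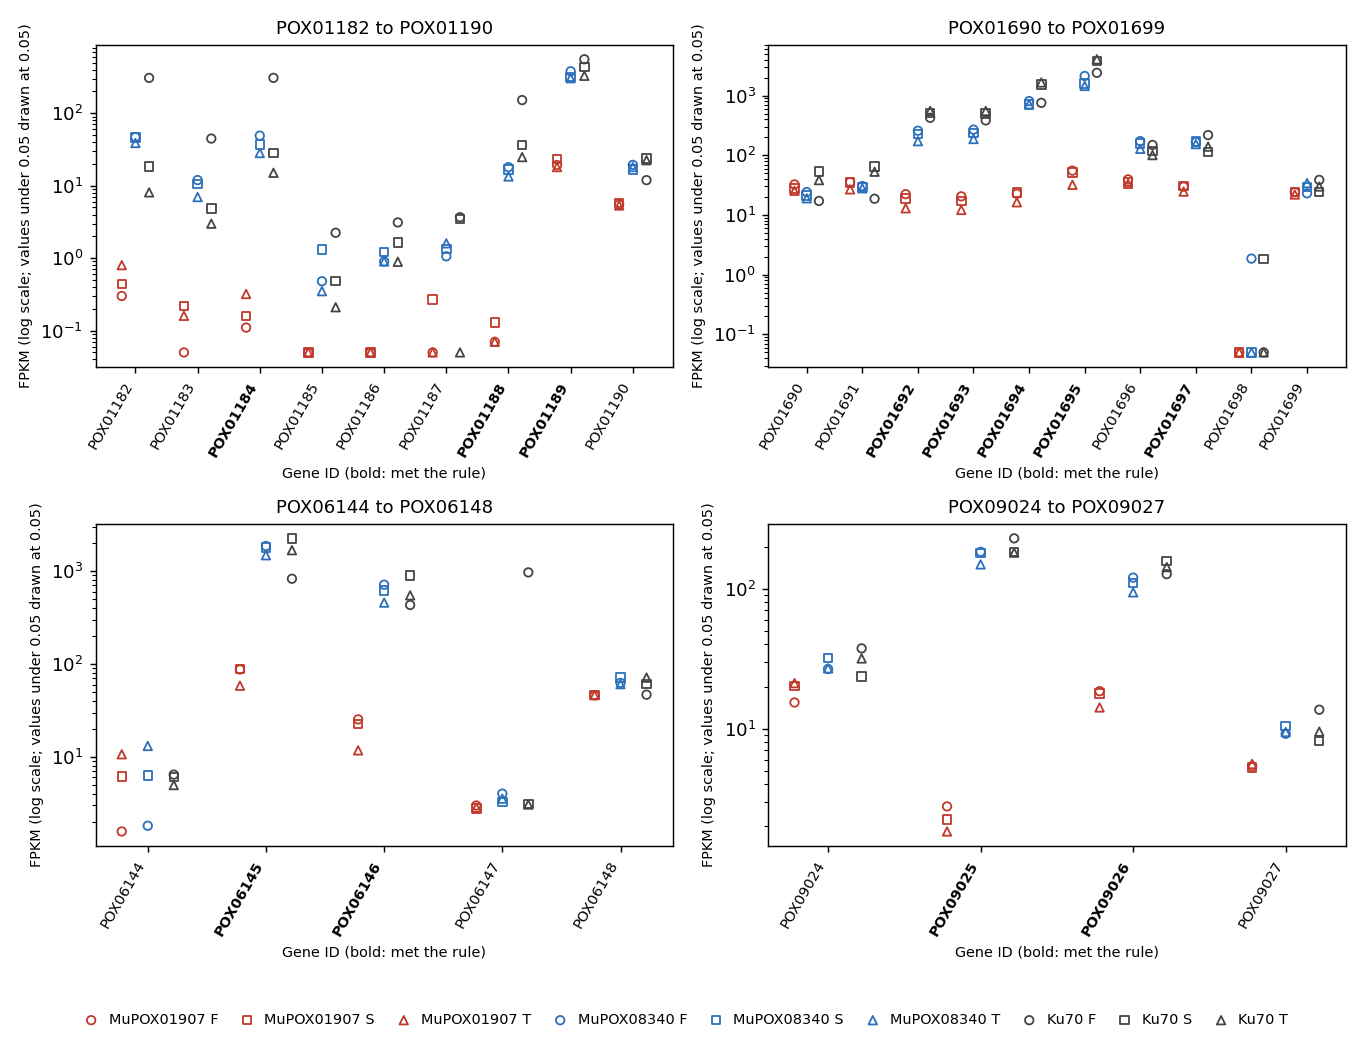
FPKM (log scale, values under 0.05 drawn at 0.05) of every library for the IDs of 4 stretches, with the genes that met the rule in bold; colours mark the strain and symbols the library. In POX01692 to POX01695 the 6 blue and black values lie far above the red ones while POX01691 and POX01699 overlap, and in POX01182 to POX01188 the black circle of Ku70 F stands above its group.

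The group was also compared between MuPOX08340 and Ku70 with edgeR's quasi-likelihood test on the expected counts of all 8623 genes with enough reads. The rule set no direction between these strains. It did bound all 6 of their libraries from below, so the shares called describe chosen genes, and the part of this choice in them was not tested. All 101 genes were tested. A gene was called where the Benjamini-Hochberg adjusted p was under 0.05 and the log2 fold change was at least 1 in size. By this test 14 of the 101 genes (13.9%) were lower in MuPOX08340 than in Ku70 and 2 (1.98%) were higher. The background was 5.14% lower and 2.78% higher among all genes tested, and 3.19% lower and 1.52% higher among the 5734 genes that reached 10 FPKM in all 6 libraries. By this fit these 14 genes were thus below Ku70 in MuPOX08340 too, some of them only under part of the settings given below. That MuPOX01907 was below both other strains was set by the rule and is no result of the fit. Both mutants also differ from Ku70 in the stated medium, which cannot be told apart from the mutations here.

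Over the 101 genes the median log2 fold change of MuPOX08340 over Ku70 was -0.26, against -0.001 over all genes tested, with 69 genes negative and 32 positive. Without Ku70 F the median was -0.11. Of the 85 genes that were not called, 41 had a 95% interval of the difference that lay within a log2 of -1 to 1, so that a change of 2-fold or more was outside the interval. These are 40.6% of the 101 genes, against 71.5% of the 5734 genes and 58.1% of all genes tested, and the median SE was 0.27 in the 101 genes and 0.18 in the 5734. The other 44 had wider or shifted intervals and are not shown to be alike in both strains.

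The largest difference was that of POX09819. It measured 17.6, 18.8 and 14.9 FPKM in MuPOX08340 F, S and T and 71.0, 183 and 236 FPKM in Ku70, and the groups did not overlap (log2 -3.27, SE 0.38, edgeR adjusted p = 0.00154). Its level in MuPOX01907 was lower again, at 3.22, 3.29 and 2.53 FPKM. POX01470 measured 55.0, 49.6 and 52.5 FPKM in MuPOX08340 and 583, 221 and 259 FPKM in Ku70 (log2 -2.79, SE 0.36, edgeR adjusted p = 0.00222), and 9.40, 9.76 and 8.55 FPKM in MuPOX01907. In both genes the 3 strains formed 3 separate levels, of which the lowest, that of MuPOX01907, was set by the rule.

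POX06008 showed the same 3 steps, from 409, 457 and 311 FPKM in Ku70 through 111, 87.9 and 85.3 FPKM in MuPOX08340 to 17.2, 14.2 and 10.8 FPKM in MuPOX01907 (MuPOX08340 against Ku70 log2 -2.08, SE 0.23, edgeR adjusted p = 0.0011). POX00562 measured 80.0, 80.4 and 97.6 FPKM in MuPOX08340 and 247, 172 and 173 FPKM in Ku70 (log2 -1.23, SE 0.19, edgeR adjusted p = 0.00611). These 4 genes, and POX07270 among the higher ones, passed the test under each of the 17 alternative settings, with adjusted p of at most 0.0408. Without Ku70 F their log2 values were -3.62, -2.20, -2.04 and -1.01.

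The other genes called lower that the ranking by adjusted p named were POX02834, POX01692, POX03815, POX09101, POX07619 and POX02355. Their log2 values ran from -1.82 in POX02355 to -1.20 in POX01692. POX02834, for example, measured 65.6, 60.8 and 54.9 FPKM in MuPOX08340 and 99.2, 223 and 288 FPKM in Ku70 (log2 -1.76, SE 0.33, edgeR adjusted p = 0.0127), and POX09101 measured 118, 77.1 and 89.5 FPKM and 201, 358 and 230 FPKM (log2 -1.50, SE 0.29, edgeR adjusted p = 0.0138). The remaining 4 were POX01188, POX01693, POX01695 and POX09323, with log2 values of -2.19, -1.07, -1.01 and -1.43. POX01695 was called in 6 and POX01188 in 7 of the 17 alternative settings, with adjusted p of up to 0.15 and 0.151 by edgeR. Without Ku70 F the log2 values of POX02834, POX01692, POX03815, POX09101, POX07619 and POX02355 were -2.08, -1.29, -1.21, -1.65, -1.95 and -1.27, and those of POX01693, POX01695 and POX09323 were -1.19, -1.19 and -1.70. From POX01692 to POX01695 the values were -1.20, -1.07, -0.83 and -1.01, of which that of POX01694 was not called (SE 0.27, edgeR adjusted p = 0.0703).

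These calls rested on few libraries. Without MuPOX08340 S, 4 of the 101 genes were called lower, beside 164 of all genes, where the full fit called 14 and 443. Without MuPOX08340 T the counts were 6 and 182, and a fit on the MuPOX08340 and Ku70 libraries alone gave 8 and 202, so that the calls over all genes dropped too. Without Ku70 F, 15 of the 101 genes were called lower, against 276 higher and 497 lower calls over all genes, and POX01188 was then at a log2 of -0.96 and under the fold minimum.

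Higher in MuPOX08340 than in Ku70 were POX07270 and POX01044. POX07270 measured 312, 420 and 303 FPKM in MuPOX08340, 19.5, 73.3 and 52.1 FPKM in Ku70 and 2.44, 3.44 and 2.65 FPKM in MuPOX01907, a log2 difference of 2.82 between MuPOX08340 and Ku70 (SE 0.42, edgeR adjusted p = 0.00465) and a fold of 121 between the mutants. POX01044 measured 198, 199 and 165 FPKM in MuPOX08340, 122, 83.7 and 61.9 FPKM in Ku70 and 3.46, 3.61 and 3.80 FPKM in MuPOX01907 (log2 1.04, SE 0.23, edgeR adjusted p = 0.0227). The groups did not overlap in either gene, and without Ku70 F the log2 values were 2.45 and 1.35. The call of POX01044 was lost without MuPOX08340 S, MuPOX08340 T, Ku70 S or Ku70 T and in the fit on MuPOX08340 and Ku70 alone, where its log2 value was at least 0.82 and its adjusted p at most 0.0936.

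**Figure D4:**
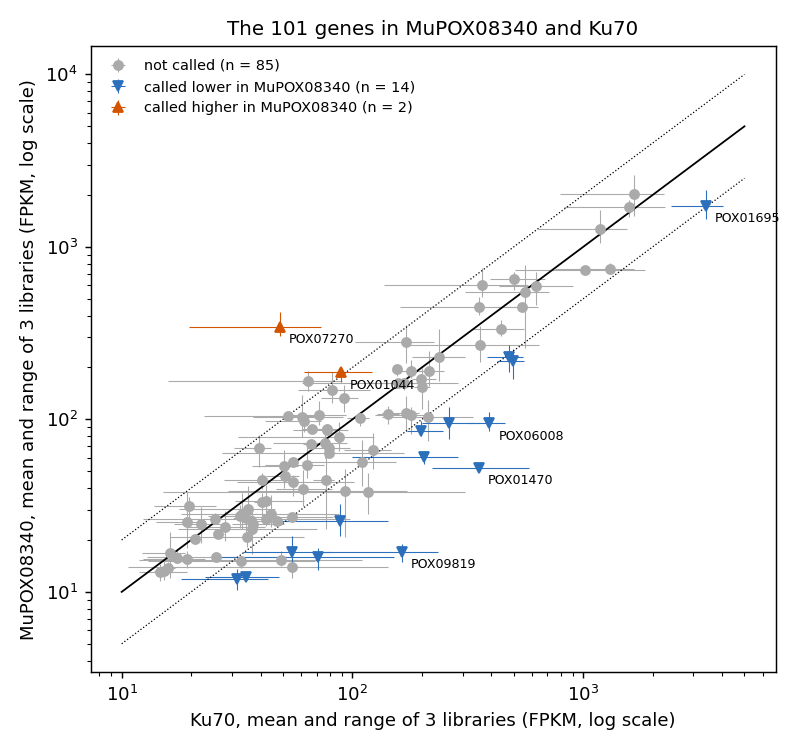
Mean FPKM of the 101 genes in Ku70 (horizontal axis) and MuPOX08340 (vertical axis), both on log scales, with the range of 3 libraries as lines; the solid line marks equal levels and the dotted lines a 2-fold difference. The 14 blue genes were called lower in MuPOX08340, POX09819 being the furthest from the line, and the 2 orange ones higher.

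POX09025, POX08483 and POX01184, also among the 10 largest ratios, did not pass this test. POX09025 had a log2 difference of MuPOX08340 over Ku70 of -0.24 (95% interval -0.64 to 0.17, edgeR adjusted p = 0.384) and POX08483 one of 0.14 (-0.42 to 0.71, edgeR adjusted p = 0.72). The interval of POX06145, 0.09 (-0.66 to 0.84), also lay within a log2 of 1. That of POX01184, -1.67 (-3.84 to 0.50, edgeR adjusted p = 0.253), spans a rise and a deep fall, and the value was 0.80 without Ku70 F.

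Ku70 was the most variable strain for the 101 genes. The highest Ku70 library exceeded the lowest by a median factor of 1.81, against 1.44 over the 5734 genes at 10 FPKM or more, and in MuPOX08340 the factors were 1.33 and 1.23. Ku70 F was at least 2-fold above both S and T in 15 of the 101 genes (14.9%, against 2.3% of the 5734) and at least 2-fold below both in 14 (13.9% against 5.98%). The rule itself bounds Ku70 F from below, and these shares carry no test.

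The 15 genes high in Ku70 F were POX01184, POX08103, POX07387, POX08652, POX01188, POX03871, POX08654, POX01825, POX09341, POX05572, POX02972, POX02853, POX06926, POX03936 and POX01470. POX08103 measured 142 FPKM in Ku70 F but 10.7 and 11.4 FPKM in S and T, beside 16.4, 13.3 and 12.05 FPKM in MuPOX08340 and 0.93, 0.92 and 1.01 FPKM in MuPOX01907, so that its fold of Ku70 over MuPOX01907 was 57.5 with and 11.6 without Ku70 F. POX08652 measured 110, 24.7 and 11.9 FPKM in Ku70, and its fold was 14.2 with and 5.30 without Ku70 F. In 14 of the 101 genes the fold of Ku70 over MuPOX01907 moved by more than 1.5 times without Ku70 F, and in POX01829 and POX09781 it did so without Ku70 S, from 18.0 to 11.5 and from 26.8 to 16.5.

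The 14 genes low in Ku70 F were POX06743, POX01829, POX02995, POX04337, POX07270, POX04109, POX09819, POX04064, POX04863, POX02834, POX02792, POX06145, POX08454 and POX01694. POX06743 measured 15.9, 87.1 and 90.0 FPKM in Ku70 F, S and T, 147, 165 and 190 FPKM in MuPOX08340 and 3.06, 3.42 and 4.04 FPKM in MuPOX01907. Its Ku70 F value thus lay nearer to MuPOX01907 than those of S and T did. POX04337 measured 137, 576 and 383 FPKM in Ku70, 511, 547 and 755 FPKM in MuPOX08340 and 26.3, 29.1 and 18.2 FPKM in MuPOX01907. What part the profile of Ku70 F had in these values was not tested.

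**Figure D5:**
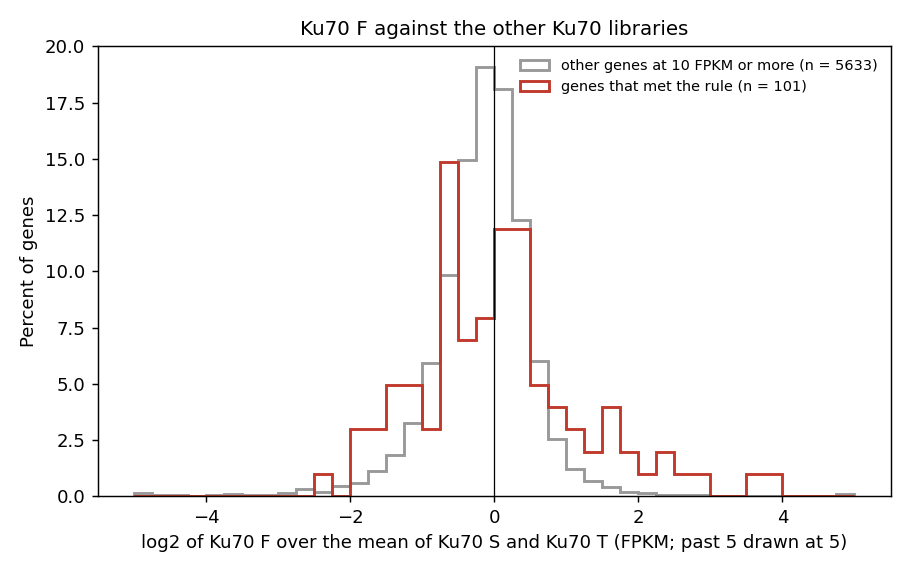
Percent of genes by the log2 ratio of Ku70 F to the mean of Ku70 S and Ku70 T, for the 101 genes (red) and the rest of the 5734 genes with at least 10 FPKM in all 6 MuPOX08340 and Ku70 libraries (grey). Of the 101 genes, POX01184 and POX08103 lie furthest to the right and POX06743 furthest to the left, and a larger percentage of them than of the grey genes lies far from 0 on both sides.

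Within MuPOX01907, library T was the lowest of the 3 in 72 of the 101 genes (71.3%), against 49.6% of the 5734 genes. The highest MuPOX01907 library exceeded the lowest by a median factor of 1.32 and at most 3.17. Leaving out any 1 MuPOX01907 library kept the median fold of Ku70 over MuPOX01907 between 9.32 and 10.1. In gene length, implied by reads and FPKM, the 101 genes had a median of 1144 bases with quartiles of 811 and 1671, against 1249 in 5710 genes at 10 FPKM or more that had enough reads for it.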

How the data were processed

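Per the file headers, each deposited file holds FPKM and an expected count per ID, for 1 library and the same 9834 IDs. The submitters' processing notes name RSEM 1.2.12, DESeq2, Bowtie2 2.1.0 and BWA 0.7.10-r789. Not given in the sources used here are their roles, the genome build, the annotation and strandedness. Reads of close copies or overlapping genes may thus be split in unknown ways. FPKM were used as deposited by the authors, without further scaling. Expected counts as deposited were rounded to whole numbers and fitted in R 4.3.3 with edgeR 4.0.16 (TMM factors, filterByExpr, quasi-likelihood F test, 3 groups in 1 fit, Benjamini-Hochberg over all genes). A standard error is the log2 fold change divided by the square root of F. Alternatives were limma 3.58.1 on log2(FPKM + 1), for genes with a mean of at least 1 FPKM, or log2(FPKM + 0.1), DESeq2 1.42.0, other scalings and filters, a replicate block and single libraries left out. The main edgeR fit, limma on log2(FPKM + 1) and DESeq2 were run on simulated counts, in which MuPOX01907 had the levels of Ku70. The other settings were not. Between 97.1% and 97.8% of counts per library were whole within 1e-06.

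The rule for the genes, the lists and the tests were chosen with earlier results of these data known. Named genes are those with the 10 largest ratios and the 10 highest means, runs of 3 or more consecutive IDs, calls (at most 10 a direction, by adjusted p), the nearest on both sides of each limit, and the 3 most variable in Ku70. MuPOX01907 against the others was not tested, because it chose the genes.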

Additional observations from a re-analysis of the deposited data

How the results depend on the processing

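Under other forms of the rule, 208 genes met it with a ratio of 2, 62 with a ratio of 4 and 256 with group means in place of single libraries. Leaving out 1 library gave 101 to 157 genes, the highest without Ku70 F. Each of these sets held all 101, which was fixed in advance, since leaving out a library can only loosen the rule. TMM-scaled FPKM lowered the median fold of MuPOX08340 over MuPOX01907 from 7.65 to 6.10. In MuPOX08340 against Ku70, the fit on those libraries alone called 1 of the 101 genes higher and 8 lower, and 113 higher and 202 lower of all genes. With 1 library left out, calls among the 101 genes ran from 1 to 2 higher and 4 to 19 lower, and over all genes from 117 to 385 higher and 164 to 673 lower. The higher calls over all genes were 385 without MuPOX08340 F, 117 without MuPOX08340 S, 132 without MuPOX08340 T and 159 without Ku70 S, and the lower ones 673 without Ku70 T and 182 without MuPOX08340 T. Limma on log2(FPKM + 1) called 2 higher and 12 lower of the 101 genes, beside 214 and 305 of all genes, and DESeq2 3 and 18, beside 350 and 558. The 16 genes called kept their sign under all 17 settings. Between MuPOX08340 and Ku70, deviations from the group mean correlated at 0.0556, -0.178 and 0.275 for the same letters F, S and T. Those of unlike letters ran from -0.296 to 0.232. With 3 libraries a group, and MuPOX01907 not included, this cannot settle whether the letters pair the libraries. With the letters as a replicate block 2 genes of the 101 were called higher and 13 lower, and 271 and 405 of all genes.

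The sign of the log2 fold change of MuPOX08340 over Ku70 turned in 12 of the named genes, none of them called. Among them POX03474, just outside the ratio limit, did not meet the rule itself. Given here are the lowest and highest value with 1 library left out. Turned by Ku70 F alone were POX01184 (-2.19 to 0.80), POX02714 (-0.352 to 0.063), POX02853 (-0.85 to 0.27), POX04064 (-0.015 to 0.70), POX04863 (-0.055 to 0.54), POX06145 (-0.21 to 0.42) and POX08103 (-2.55 to 0.33). POX03474 (-0.066 to 0.28) turned without MuPOX08340 T, POX06146 (-0.30 to 0.25) without MuPOX08340 T or Ku70 S, and POX08454 (-0.21 to 0.32) without MuPOX08340 T or Ku70 F. POX08483 (-0.047 to 0.33) turned without MuPOX08340 F or Ku70 F, and POX08497 (-0.42 to 0.29) without MuPOX08340 F, Ku70 F or Ku70 T. The cause was not tested. POX01188 and POX01184 rest on 4 and 11 reads in MuPOX01907.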

Other observations

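A further 56 genes met the rule once Ku70 F was left out. Each of them missed the full rule through Ku70 F alone, so a low Ku70 F value is how they were chosen. In 23 of them Ku70 F was under 10 FPKM, and in 16 it was under the highest MuPOX01907 value. POX06513, named here for its level after the values were seen, measured 884, 837 and 952 FPKM in MuPOX01907 F, S and T, 7181, 5736 and 4813 FPKM in MuPOX08340 and 189, 7013 and 5065 FPKM in Ku70. POX05306 measured 97.3, 101 and 61.4 FPKM in MuPOX01907, 4325, 3364 and 3295 FPKM in MuPOX08340 and 59.6, 2773 and 1138 FPKM in Ku70. In both, Ku70 F was the lowest of the 9 libraries. Ku70 S and T lay within the MuPOX08340 range for POX06513 and below it, but far above MuPOX01907, for POX05306. The consecutive IDs POX03095 and POX03096 had the same order, with 23.7 and 4.66 FPKM in Ku70 F, 2079 and 278 FPKM in Ku70 S and 130 and 18.9 FPKM in MuPOX01907 F.

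Of these 56 genes, 5 were next to one of the 101 in ID number. The share of all IDs that lie next to one of the 101 was not counted, so this is a description only. POX07269, beside POX07270, measured 0.36, 0.41 and 0.25 FPKM in MuPOX01907, 81.7, 131 and 82.4 FPKM in MuPOX08340 and 4.69, 22.6 and 10.7 FPKM in Ku70. POX08482, beside POX08483, measured 1.88, 2.65 and 2.23 FPKM, 63.1, 50.8 and 63.3 FPKM and 3.46, 37.0 and 37.7 FPKM in the same order. The others were POX01826, POX02996 and POX08195. POX08339, whose number precedes that of the altered gene POX08340, was also among the 56, at 17.8, 18.8 and 18.9 FPKM in MuPOX01907, 285, 237 and 215 FPKM in MuPOX08340 and 11.7, 73.9 and 65.6 FPKM in Ku70.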
